A study of Mus musculus with 12 samples.

Results

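The negative feedback inhibitors of ERK signalling were represented by 9 genes: the dual-specificity phosphatases Dusp1, Dusp4, Dusp5 and Dusp6, the Sprouty genes Spry1, Spry2 and Spry4, and the Sprouty-related genes Spred1 and Spred2. They were taken by gene symbol from the 19938 genes that a probe set with 1 symbol represented on the array, each gene by its probe set of highest mean. All 9 passed the filter on low values, which kept 13956 genes, and their mean levels lay between percentiles 55.7 and 91.9 of the genes measured. The RNA came from mouse embryonic fibroblasts, cells of connective tissue cultured from embryos, and was hybridised to 12 Affymetrix arrays. The arrays formed 4 groups of 3: wild-type cells at 18 h, wild-type cells at 30 h, cells labelled MLL1 KO at 18 h and cells labelled MLL1 KO at 30 h. MLL1 is a histone H3 lysine methyltransferase encoded by Kmt2a. All cells, of both genotypes, had been grown with 5% fetal bovine and 5% newborn calf serum and had received a 2 h pulse of 50% horse serum, a serum shock used to synchronise circadian clocks in culture, so no group was without serum treatment. Times are counted from the shock. The labels give neither the part of Kmt2a that was disrupted nor the number of lines or embryos behind a group, so a p-value here rests on the spread of arrays within groups, pooled over the 4 groups, and that spread may be technical.

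ERK is the last kinase of a cascade that runs from growth factor receptors through RAS, RAF and MEK, and in fibroblasts it is switched on by serum. Active ERK induces genes that then damp the cascade. DUSP phosphatases remove the activating phosphates from MAP kinases, DUSP1, DUSP4 and DUSP5 in the nucleus and DUSP6 in the cytoplasm. Sprouty proteins act between the receptors and RAS or RAF, and SPRED proteins bring the RAS inhibitor neurofibromin to the membrane. Because several of these genes are themselves induced by ERK, their transcripts are widely read as a record of pathway activity, which was not measured here.

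Median intensities of all probe sets lay between 273.3 and 311.8 over the 12 arrays. Medians of the tested genes alone were 786 to 829 on wild-type arrays and 734 to 773 on knockout arrays. The first principal component held 86.8% of the variance and separated the genotypes. On the second, with 7.11%, replicate 1 of knockout at 18 h stood apart at -9.34 from replicates 2 and 3 at -25.2 and -24.9, towards the knockout arrays at 30 h at 20.02 to 24.6. Results that rest on that array are given below with and without it where it changed a call. Kmt2a had a log2 difference between knockout and wild type of -0.19 at 18 h (limma adjusted p = 0.108) and -0.57 at 30 h (limma adjusted p = 0.000111). The position of its probes relative to the disruption is not given, so it does not check the labels. Of 13 fibroblast markers measured, all but Lum passed the filter, and of these 12, 4 were higher and 5 lower in knockout at 18 h and 4 higher and 7 lower at 30 h. Dcn was at 3.74 on the log2 scale, Pdgfra at -3.22 and Col3a1 at -2.53 at 18 h, so the summed intensity of the list, 61923 to 67669 in wild type and 59649 to 63868 in knockout, hides opposite differences. Of 7 neural and glial markers tested, 4 were higher in knockout at each time, namely Map2, Nes, Ncam1 and Tubb3. Sox2, Sox10 and S100b were not called, and Gfap and Dcx were below the filter. The summed intensity of the 9 measured was 1943 to 2269.7 in wild type and 9739.7 to 12858 in knockout. That gap reflects those 4 genes and not the list as a whole. Of 8 epithelial markers 7 passed the filter, all but Epcam, with a summed intensity of 3699 to 5008 over all arrays, and Krt19 alone was called, higher in knockout at 18 h. Of 7 smooth muscle markers 5 passed the filter, Tagln and Cnn1 not, and the sum was 3082 to 3543 in wild type at 18 h and 5735 to 8072 in the other groups. Most of that gap was Acta2, with a mean of 1163 in wild type at 18 h and 4112 to 5833 in the other groups. Between the genotypes Acta2 was called at 18 h but not at 30 h (0.18, limma adjusted p = 0.274). Myl9 was higher in knockout at both times, and Des was lower at 30 h (-0.36, limma adjusted p = 0.0166). Cnn1, although below the filter, read 187 to 236 in knockout at 18 h against 77.8 to 110 in wild type. Of 7 blood and macrophage markers, Ptprc, Adgre1 and Lyz2 were below the filter, and the sum was 2336 to 3997 in knockout at 18 h and 1838 to 2191 in the other groups. Of the 4 tested, Cd14 alone was called at 30 h and Cd68 alone at 18 h, at 1315 to 2964 in knockout and 1122 to 1214 in wild type. The endothelial markers Pecam1, Cdh5, Tek, Tie1, Kdr and Erg were below the filter, which uses the mean of all arrays, and Kdr reached 224 to 344 in knockout at 18 h against 76.8 to 96.6 in wild type. These marker genes were named after their values were seen. The part of these marker differences in the results below was not tested. In bulk RNA fewer cells of a type cannot be told apart from less RNA per cell.

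The sequence just upstream of the start was available for 7 of the 9 genes in a RefSeq table of assembly GRCm38.p6, all but Dusp4 and Spry4, and is printed for Dusp1 and Dusp5, which were higher in knockout at both times, and for Spry1, whose difference between the genotypes changed sign. Each line gives the 250 bases before the start, 5′ to 3′ on the gene's strand, at chr17:26508473-26508722 (minus strand) for Dusp1, chr19:53528895-53529144 (plus strand) for Dusp5 and chr3:37639697-37639946 (plus strand) for Spry1. Capitals mark matches, on either strand, to any of 5 motifs: the cyclic AMP response element (TGACGTCA), the E-box that CLOCK and BMAL1 can bind (CACGTG), the AP-1 site (TGANTCA), an ETS core (CGGAAG) and the CArG box bound by serum response factor. The motifs were chosen with these sequences in view, and none overlapped another in the 3 windows.
Dusp1: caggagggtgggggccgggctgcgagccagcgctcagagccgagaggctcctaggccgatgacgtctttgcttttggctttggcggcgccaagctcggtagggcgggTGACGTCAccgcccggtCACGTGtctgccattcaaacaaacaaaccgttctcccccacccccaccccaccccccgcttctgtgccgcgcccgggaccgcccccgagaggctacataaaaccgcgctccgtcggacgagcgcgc
Dusp5: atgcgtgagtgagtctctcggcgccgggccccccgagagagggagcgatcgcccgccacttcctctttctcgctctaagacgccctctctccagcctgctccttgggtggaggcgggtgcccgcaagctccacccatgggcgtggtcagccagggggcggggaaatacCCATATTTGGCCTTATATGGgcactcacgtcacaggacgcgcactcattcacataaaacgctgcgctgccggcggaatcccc
Spry1: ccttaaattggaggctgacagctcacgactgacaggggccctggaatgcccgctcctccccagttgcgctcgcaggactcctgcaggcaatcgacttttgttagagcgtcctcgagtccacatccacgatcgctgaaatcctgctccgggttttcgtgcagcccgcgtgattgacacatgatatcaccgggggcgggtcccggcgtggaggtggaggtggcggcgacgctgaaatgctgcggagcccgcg
The Dusp1 window held a cyclic AMP response element 136 bases before the start and an E-box 121 bases before it. The Dusp5 window held 2 adjoining CArG boxes, CCATATTTGG and CCTTATATGG, 73 and 63 bases before the start. The Spry1 window and that of Spry2 held none of the 5 motifs, and those of Dusp6, Spred1 and Spred2 held 1 ETS core each. Of all 32851 upstream windows of this length in the table, 1.55% held a cyclic AMP response element, 6.02% an E-box, 6.75% an AP-1 site, 13.6% an ETS core and 1.47% a CArG box. A match is a description of letters and was not tested as a binding site.

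All 4 phosphatase genes were higher in knockout than in wild type at both times, by 1.51-fold to 5.39-fold, and on every one the 6 knockout arrays lay above the 6 wild-type arrays. Dusp5, a nuclear phosphatase specific for ERK, differed most. Its intensity was 291, 324 and 323 in wild type at 18 h and 337, 348 and 382 at 30 h. Knockout arrays had 1579, 1931 and 1771 at 18 h and 1857, 1941 and 1694 at 30 h. Even the lowest knockout array was several times the highest wild-type array, and within each genotype the 18 h and 30 h values were close. The log2 difference between knockout and wild type was 2.43 ± 0.09 (SE, n = 3 each) at 18 h, a 5.39-fold difference (95% interval 4.71 to 6.18, limma adjusted p = 6.56e-13). It was 2.31 ± 0.09 (SE, n = 3 each) at 30 h, a 4.97-fold difference (95% interval 4.34 to 5.69, limma adjusted p = 1.39e-12).

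Dusp4, a nuclear phosphatase of ERK and JNK, followed. It was measured at 641, 674 and 538 in wild type at 18 h and 553, 661 and 628 at 30 h. Knockout arrays had 1784, 1956 and 2222 at 18 h and 1829, 1784 and 1579 at 30 h. No knockout array reached the wild-type range, and the ranges of the 2 times overlapped within each genotype. The knockout level was 3.16-fold that of wild type at 18 h (log2 difference 1.66 ± 0.11, SE, n = 3 each, limma adjusted p = 5.97e-10) and 2.77-fold at 30 h (log2 difference 1.47 ± 0.11, SE, n = 3 each, limma adjusted p = 3.54e-09).

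Dusp1 is an immediate early gene whose product acts on p38 and JNK as well as ERK. Wild type gave 1843, 1615 and 1945 at 18 h and 2023, 2054 and 2016 at 30 h. Knockout gave 3611, 5315 and 5331 at 18 h and 4071, 4124 and 3682 at 30 h. Replicate 1 was the low knockout array at 18 h and lay below all 3 knockout arrays at 30 h. The log2 difference was 1.37 ± 0.12 (SE, n = 3 each, limma adjusted p = 2.69e-08) at 18 h, or 2.59-fold, and 0.96 ± 0.12 (SE, n = 3 each, limma adjusted p = 2.9e-06) at 30 h, or 1.94-fold.

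Dusp6, the cytoplasmic phosphatase specific for ERK, had 1037, 1056 and 1174 in wild type at 18 h and 1259, 1239.7 and 1397 at 30 h. In knockout it had 2147, 2849 and 3139 at 18 h and 2154, 2087 and 1681 at 30 h. Wild-type arrays at 30 h all lay above those at 18 h. Knockout arrays at 30 h lay below replicates 2 and 3 at 18 h, and replicate 1 of knockout at 18 h lay within the 30 h range. The difference between the genotypes was 2.44-fold at 18 h (log2 1.29 ± 0.12, SE, n = 3 each, limma adjusted p = 1.01e-07) and 1.51-fold at 30 h (log2 0.59 ± 0.12, SE, n = 3 each, limma adjusted p = 0.000604).

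**Figure D1:**
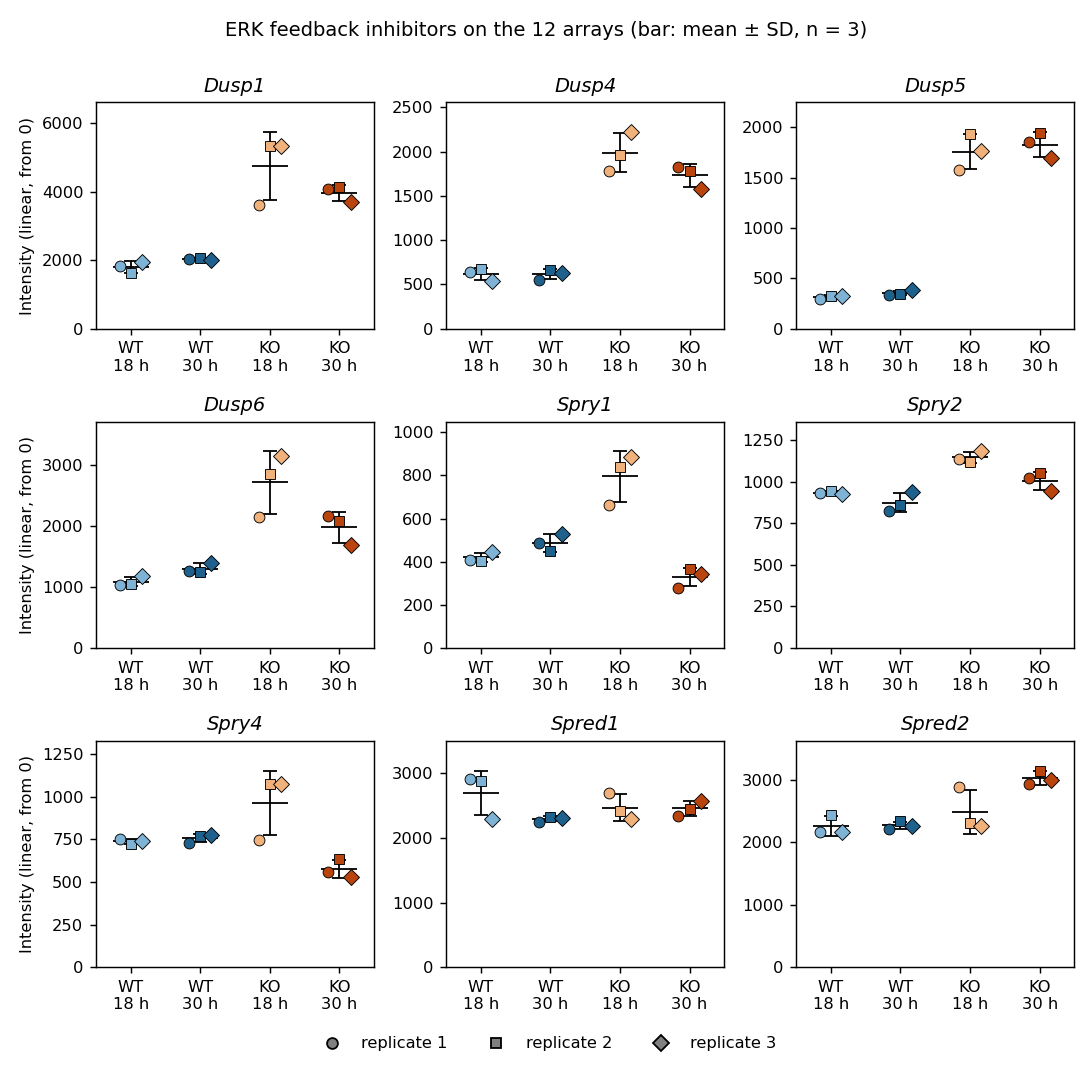
Linear probe set intensity of the 9 genes on each of the 12 arrays, by genotype (WT, wild type; KO, knockout) and hours after serum shock, with 1 symbol per replicate and bars for the mean ± SD of 3 arrays; axes start at 0 and differ between panels. For the 4 phosphatase genes all knockout arrays lie above all wild-type arrays, and the mean of Dusp6 falls with time in knockout. Spry1 and Spry4 are highest in knockout at 18 h and lowest in knockout at 30 h.

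Spry1 and Spry4 were higher in knockout than in wild type at 18 h and lower at 30 h, and Spry2 was slightly higher at both times. Spry1 had intensities of 409.7, 404 and 446 in wild type at 18 h and 485, 448 and 528 at 30 h. In knockout they were 663, 838 and 884 at 18 h and 280.3, 364 and 344 at 30 h. From the lowest, the order of its groups was knockout at 30 h, wild type at 18 h, wild type at 30 h and knockout at 18 h. No ranges overlapped, although the change in wild type did not pass the test (log2 0.20, limma adjusted p = 0.383). The log2 difference between knockout and wild type was 0.89 ± 0.12 (SE, n = 3 each, limma adjusted p = 5.08e-06) at 18 h, 1.85-fold, and -0.55 ± 0.12 (SE, n = 3 each, limma adjusted p = 0.000818) at 30 h, a ratio of 0.684.

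Spry4 took the same order on a smaller scale. Wild type read 749.6, 722 and 742 at 18 h and 731, 770.4 and 774 at 30 h. Knockout read 747, 1072 and 1074 at 18 h and 561, 633 and 531 at 30 h. Replicate 1 of knockout at 18 h lay within the wild-type range and the other two above it, while all 3 knockout arrays at 30 h were below every wild-type array. The log2 difference was 0.36 ± 0.12 (SE, n = 3 each, limma adjusted p = 0.0138) at 18 h. It was 0.53 with knockout 18 h replicate 1 left out (limma adjusted p = 4.52e-05). It no longer passed with replicate 2 of that group left out (0.28, limma adjusted p = 0.0788) or replicate 3 (0.27, limma adjusted p = 0.0742). These bound the adjusted p over its 23 alternatives. At 30 h the difference was -0.39 ± 0.12 (SE, n = 3 each, limma adjusted p = 0.00926), a ratio of 0.761.

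Spry2, which binds several receptor adaptors, differed less between the genotypes than Spry1 and Spry4 at each time. It was measured at 934, 944 and 924 in wild type at 18 h and 824, 862 and 938 at 30 h. Knockout arrays had 1135, 1119 and 1183 at 18 h and 1022, 1052 and 947 at 30 h. Genotypes did not overlap at either time, with a gap at 30 h of a few units between the highest wild-type and the lowest knockout array. Knockout was 1.22-fold wild type at 18 h (log2 0.29 ± 0.08, SE, n = 3 each, limma adjusted p = 0.00344) and 1.15-fold at 30 h (log2 0.20 ± 0.08, SE, n = 3 each, limma adjusted p = 0.0368). The 30 h call did not hold in 7 of its 23 alternatives, over which the limma adjusted p ran from 0.00395 to 0.139. These were leaving out wild-type 30 h replicate 1 (0.16) or 2 (0.19), leaving out knockout 30 h replicate 1 (0.19) or 2 (0.17), no filter (0.20), equal array medians (0.17) and the replicate number as a block (0.20).

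Of Spred1 and Spred2, Spred2 was higher in knockout at 30 h and no other difference between the genotypes passed. Spred3, the remaining SPRED gene, was higher in knockout at both times and is given with the other inhibitors below. Spred1, whose loss of function in people causes Legius syndrome, had 2909.7, 2877 and 2298 in wild type at 18 h and 2252, 2323 and 2315 at 30 h. In knockout it had 2695, 2417 and 2291 at 18 h and 2345, 2452 and 2569 at 30 h. Ranges overlapped at 18 h, and at 30 h the knockout arrays lay just above wild type. Its log2 difference did not pass the test at 18 h (-0.12, 95% interval -0.31 to 0.07, limma adjusted p = 0.257) or 30 h (0.09, 95% interval -0.09 to 0.28, limma adjusted p = 0.393). Without wild-type 18 h replicate 3, the low array of its group, the 18 h difference was -0.23 and passed (limma adjusted p = 0.0164, over all alternatives 0.0164 to 0.618).

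Spred2 was measured by 2 probe sets. The brighter one read 2167, 2446 and 2167 in wild type at 18 h and 2224, 2339.8 and 2264 at 30 h. In knockout it read 2889, 2319 and 2259 at 18 h and 2943, 3151 and 3003 at 30 h. Knockout arrays at 30 h stood above all others, and replicate 1 of knockout at 18 h was close to them while replicates 2 and 3 lay within the wild-type range. The log2 difference was 0.13 (95% interval -0.05 to 0.31, limma adjusted p = 0.206) at 18 h and 0.41 ± 0.09 (SE, n = 3 each, limma adjusted p = 0.000672) at 30 h, 1.33-fold. The other probe set, fitted among all 21789 probe sets with 1 symbol, gave 0.01 at 18 h (limma adjusted p = 0.95) and 0.41 at 30 h (limma adjusted p = 0.00769).

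In all, 7 of the 9 genes were higher in knockout at 18 h and 0 lower, where 26.3% of the 13956 genes tested were higher and 33.8% lower. At 30 h 6 were higher and 2 lower, where 24.3% of all genes were higher and 28.6% lower. The balance over all genes depends on the scaling. At 18 h 43.8% of all calls were higher, and 50.5%, 48.4% and 50.3% with quantile scaling, cyclic loess scaling and array medians set equal. For 30 h the share was 45.9%, and 49.5%, 45.2% and 42.3% in the same order. The median log2 difference of the 9 genes was 0.89 at 18 h and 0.41 at 30 h, beside -0.03 and 0.02 over all genes tested. Knockout and wild-type arrays were fully separated for 6 of the 9 genes at 18 h, where that held for 63.1% of all genes, and for all 9 at 30 h, where it held for 61.5%, Spred1 included although its difference did not pass. The share of genes called either way is therefore high in this data set, and the counts are a description of 9 chosen genes.

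**Figure D2:**
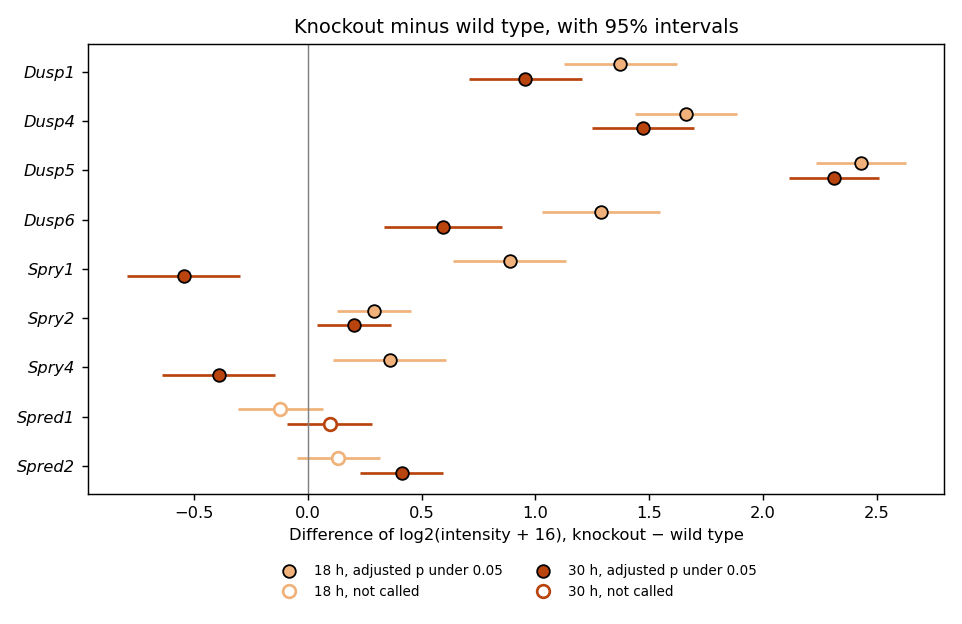
Log2 difference between knockout and wild type for each gene at 18 h (light) and 30 h (dark), with 95% intervals from limma; filled points had an adjusted p under 0.05. Dusp4 and Dusp5 sit above 1.4 at both times, Spry1 and Spry4 cross from above 0 at 18 h to below 0 at 30 h, and Spred1 spans 0 at both times.

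Between 18 h and 30 h none of the 9 genes passed the test in wild type, while in knockout Spry1, Spry4 and Dusp6 fell and Spred2 rose. In wild type the log2 changes ran from -0.22 for Spred1 (95% interval -0.41 to -0.03, limma adjusted p = 0.181) to 0.25 for Dusp6 (95% interval -0.01 to 0.51, limma adjusted p = 0.294). With limma, 1 of the 9 had an unadjusted p under 0.05, namely Spred1, and the share of all genes under that threshold is not given. At an adjusted p under 0.05, 0 of the 9 were called, beside 3.96% of all genes. Of those calls 60.9% were higher at 30 h, and 81.0% with array medians set equal. Arrays of the 2 times did not overlap in wild type for Dusp1, Dusp5, Dusp6 and Spry1, 4 of 9 genes, where that held for 25.6% of all genes. Spred1 passed as lower at 30 h without wild-type 18 h replicate 3 (-0.33, limma adjusted p = 0.0217, over all alternatives 0.0217 to 0.495).

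In knockout Spry1 had the largest change of the 9, from 795 ± 117 at 18 h to 329 ± 43.7 at 30 h (SD, n = 3 each, ratio 0.427). On the log2 scale it fell by 1.23 (95% interval of the change -1.48 to -0.98, limma adjusted p = 1.63e-06). Spry4 fell by 0.71 on the log2 scale, from 964 ± 188 to 575 ± 52.3 (SD, n = 3 each, limma adjusted p = 0.000167). Both changes held in all 23 alternatives, and the arrays of the 2 times did not overlap for either gene. Dusp6 fell by 0.45 on the log2 scale, from 2712 ± 510.4 to 1974 ± 256 (SD, n = 3 each, limma adjusted p = 0.00824), with overlapping arrays. It no longer passed with knockout 18 h replicate 3 left out (-0.33, limma adjusted p = 0.0512) or knockout 30 h replicate 3 left out (-0.33, limma adjusted p = 0.0516). It was -0.60 with knockout 18 h replicate 1 left out (limma adjusted p = 0.000192), and these bound the adjusted p over its alternatives.

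Spred2 was the 1 gene that rose with time in knockout, from 2489 ± 348 to 3032 ± 107 (SD, n = 3 each, log2 0.29, limma adjusted p = 0.0128). It no longer passed with knockout 18 h replicate 2 (0.24) or 3 (0.23) or knockout 30 h replicate 2 (0.26) left out, or with cyclic loess scaling (0.23). The limma adjusted p ran from 0.00024 to 0.0716 over its alternatives. Its dimmer probe set changed by 0.49 (limma adjusted p = 0.00366). Dusp1 had a change of -0.24 that did not pass (limma adjusted p = 0.121). Without knockout 18 h replicate 1 it was -0.43 and passed (limma adjusted p = 0.000371, over all alternatives 0.000371 to 0.425). Dusp4 at -0.20, Spry2 at -0.18, Spred1 at -0.00476 and Dusp5 at 0.06 did not pass. Spry2 passed with quantile scaling (-0.20, limma adjusted p = 0.0313) and cyclic loess scaling (-0.23, limma adjusted p = 0.0179), over all alternatives 0.0179 to 0.202. The count for knockout was thus 1 higher and 3 lower of 9, where 20.9% of all genes were higher and 18.4% lower. It became 0 higher and 2 lower without knockout 18 h replicate 3. Over all genes 53.1% of these calls were higher, and 48.7%, 44.1% and 49.0% with quantile scaling, cyclic loess scaling and array medians set equal. The arrays of the 2 times did not overlap for Spry1, Spry2, Spry4 and Spred2, where that held for 46.2% of all genes.

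**Figure D3:**
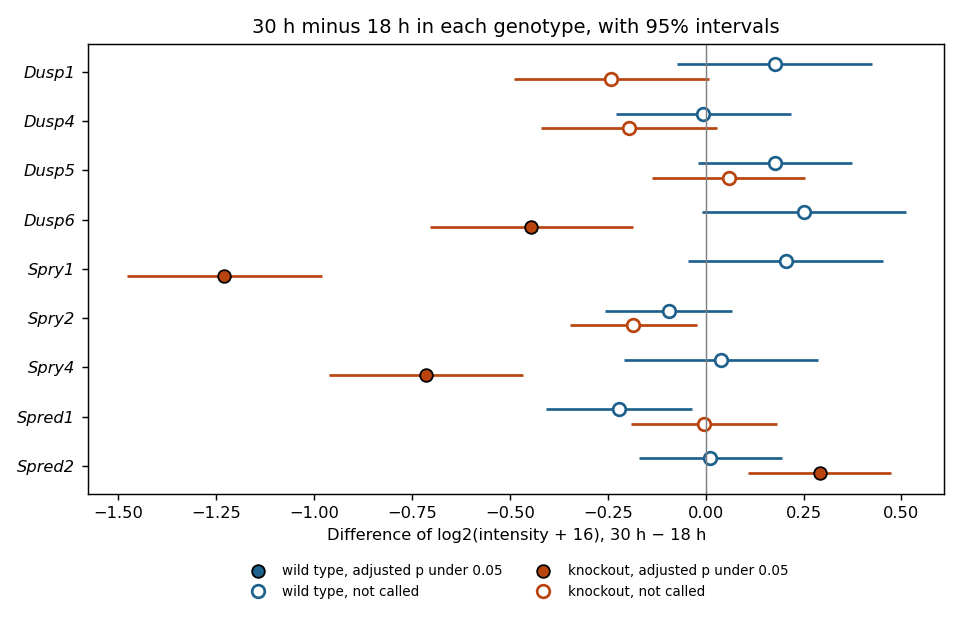
Log2 change from 18 h to 30 h in wild type (blue) and knockout (orange) for each gene, with 95% intervals from limma; filled points had an adjusted p under 0.05. No wild-type point is filled, and the knockout points of Spry1 at -1.23 and Spry4 at -0.71 lie farthest from their wild-type points.

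The change with time differed between the genotypes for Spry1, Spry4 and Dusp6, each more negative in knockout. The difference of the time effects, which is also the difference between the genotype effects at the 2 times, was -1.43 ± 0.17 on the log2 scale for Spry1 (SE, limma adjusted p = 6.12e-05), -0.75 ± 0.17 for Spry4 (SE, limma adjusted p = 0.00488) and -0.70 ± 0.17 for Dusp6 (SE, limma adjusted p = 0.0101). These 3 calls held in all 22 alternatives. Among all genes tested 10.1% were called in this direction, a share that depends on the scaling: 50.3% of calls were higher and became 42.6%, 37.4% and 30.1% with quantile scaling, cyclic loess scaling and array medians set equal. For the other 6 genes the difference did not pass. It was -0.42 for Dusp1 (95% interval -0.77 to -0.07, limma adjusted p = 0.0878), 0.28 for Spred2 (95% interval 0.02 to 0.54, limma adjusted p = 0.121) and 0.22 for Spred1 (95% interval -0.05 to 0.48, limma adjusted p = 0.251).

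The remaining 3 lay nearer 0, with Dusp4 at -0.19 (95% interval -0.51 to 0.13), Dusp5 at -0.12 (95% interval -0.40 to 0.16) and Spry2 at -0.09 (95% interval -0.32 to 0.14). Without knockout 18 h replicate 1 the count rose from 3 to 5, with Dusp1 at -0.60 (limma adjusted p = 0.000496, over all alternatives 0.000496 to 0.229) and Spred2 at 0.39 (limma adjusted p = 0.00529, over all alternatives 0.00529 to 0.344) added. Over all genes the same omission raised the number called from 2838 to 4145, so the rise is not particular to the 9. Without wild-type 18 h replicate 3 Spred1 was added, at 0.33 (limma adjusted p = 0.0345, over all alternatives 0.0345 to 0.548).

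Most other dual-specificity phosphatases tested were also higher in knockout. Of 9 listed 8 were tested, and 7 were higher and 1 lower at 18 h, with a median log2 difference of 0.94. Of all genes tested 26.3% were higher and 33.8% lower at that time, and 24.3% and 28.6% at 30 h. Dusp8, which acts on JNK and p38, was at 1.67 and Dusp14 at 1.54, while Dusp22 was at -1.28 (limma adjusted p = 6.11e-08, 2.06e-10 and 3.27e-08). At 30 h 5 were higher and 1 lower, with a median of 0.49, led by Dusp9, a close relative of Dusp6, at 1.26 and Dusp3 at 1.25, with Dusp22 at -1.35 (limma adjusted p = 6.87e-08, 1.44e-08 and 2.2e-08). With time in knockout 5 of the 8 fell and 1 rose, Dusp10 falling by 0.76 and Dusp7 rising by 0.21 on the log2 scale (limma adjusted p = 1.36e-05 and 0.0212). Without knockout 18 h replicate 1 the latter counts were 4 and 0. In wild type 0 of the 8 passed, and 1 rose without knockout 18 h replicate 1. Beside this, 20.9% of all genes tested rose and 18.4% fell in knockout, and 3.96% were called in wild type.

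Among 14 other inhibitors, most at the level of the receptor or of RAS, 7 were higher and 5 lower in knockout at 18 h. At 30 h 6 were higher and 5 lower, and the medians at the 2 times were 0.07 and 0.14. Pebp1, Socs1 and Socs3 were listed with them, and at 18 h Pebp1 and Socs3 were called higher and Socs1 lower. Spred3, the remaining SPRED gene, was higher by 1.18 at 18 h and 1.88 at 30 h (limma adjusted p = 4.77e-07 and 1.57e-09), and Lrig3, of a family of receptor-binding membrane proteins, was at -1.10 and -1.68 (limma adjusted p = 1.15e-07 and 5.84e-10). That family went both ways, with Lrig1 at 0.92 and 0.85 (limma adjusted p = 7.84e-09 and 2.67e-08). Lrig2, named after its values were seen, was at -0.47 and -0.52 (limma adjusted p = 0.000313 and 0.00017). Spry3, the remaining Sprouty gene, was named after its values were seen, because it completes the family. It was at -0.21 and -0.03 and did not pass (limma adjusted p = 0.148 and 0.853). Over all genes tested 26.3% were higher and 33.8% lower at 18 h, and 24.3% and 28.6% at 30 h. Of 29 genes listed for the cascade itself, 21 were tested, and 7 were higher and 7 lower at 18 h and 9 higher and 5 lower at 30 h, with medians of 0.02 and 0.07. The RAS-related genes Rras2 at 1.17 and Mras at 1.099 were the highest of the list at 18 h, and the adaptor gene Gab1 at -0.67 was the lowest (limma adjusted p = 3.18e-08, 4.8e-09 and 3.18e-06).

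Genes known to respond to ERK were higher in knockout in 16 of 20 cases and lower in 2 at 18 h, with a median of 0.78, and higher in 10 and lower in 3 at 30 h, with a median of 0.37. Shares over all genes tested were 26.3% higher and 33.8% lower at 18 h, and 24.3% and 28.6% at 30 h. Ier3, an early response gene, was at 2.58 and 2.46 at the 2 times and Plaur, the urokinase receptor gene, at 2.54 and 2.28 (limma adjusted p = 4.08e-13, 8.17e-13, 3.55e-11 and 1.71e-10). The ETS factor gene Etv1 at -0.50 and Myc at -0.36 were the lowest at 30 h among those without overlap (limma adjusted p = 0.000192 and 0.00443). With time in knockout 11 of the 20 fell and 2 rose, with Egr1, a zinc finger early response factor, falling by 1.15 and Fosl1, an AP-1 subunit gene, rising by 0.71 on the log2 scale (limma adjusted p = 2.11e-06 and 1.33e-05). In wild type 4 rose and 0 fell, led by Ccnd1, the cyclin D1 gene, at 0.54 (limma adjusted p = 0.000148). Across all genes tested 20.9% rose and 18.4% fell in knockout, and 3.96% were called in wild type. For the 20 genes the difference of time effects was called lower for 8 and higher for 1, beside 10.1% of all genes called lower. Plk3 was at -1.34 and Fosl1 at 0.43 (limma adjusted p = 0.000939 and 0.0227). Without knockout 18 h replicate 1, 10 of the 20 were called lower and 1 higher.

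Receptors and ligands upstream of the pathway differed between the genotypes in both directions, as did genes at large. The shares of all genes tested were 26.3% higher and 33.8% lower at 18 h, and 24.3% and 28.6% at 30 h. Of 11 receptors tested of 16 listed, 5 were higher and 3 lower at 18 h and 4 higher and 3 lower at 30 h, with medians of 0.14 and -0.04. Met, the receptor for hepatocyte growth factor, was higher by 1.61 at 18 h and 1.58 at 30 h (limma adjusted p = 4.15e-10 and 5.9e-10), and Pdgfra, a platelet-derived growth factor receptor, was at -3.22 and -2.93 (limma adjusted p = 6.6e-15 and 2.3e-14). Of 20 ligands tested of 23 listed, 7 were higher and 10 lower at 18 h and 6 higher and 8 lower at 30 h, with medians of -0.16 and 0.09. Pdgfb was higher by 3.79 and 3.88 and Hbegf, an EGF receptor ligand, by 3.05 and 2.05 (limma adjusted p = 8.71e-14, 7.01e-14, 5.75e-13 and 1.28e-10). Hgf, the ligand of Met, was at -3.91 and -2.85 and Fgf2 at -3.31 and -2.35 (limma adjusted p = 3.09e-14, 1.93e-12, 1.92e-14 and 1.63e-12).

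**Figure D4:**
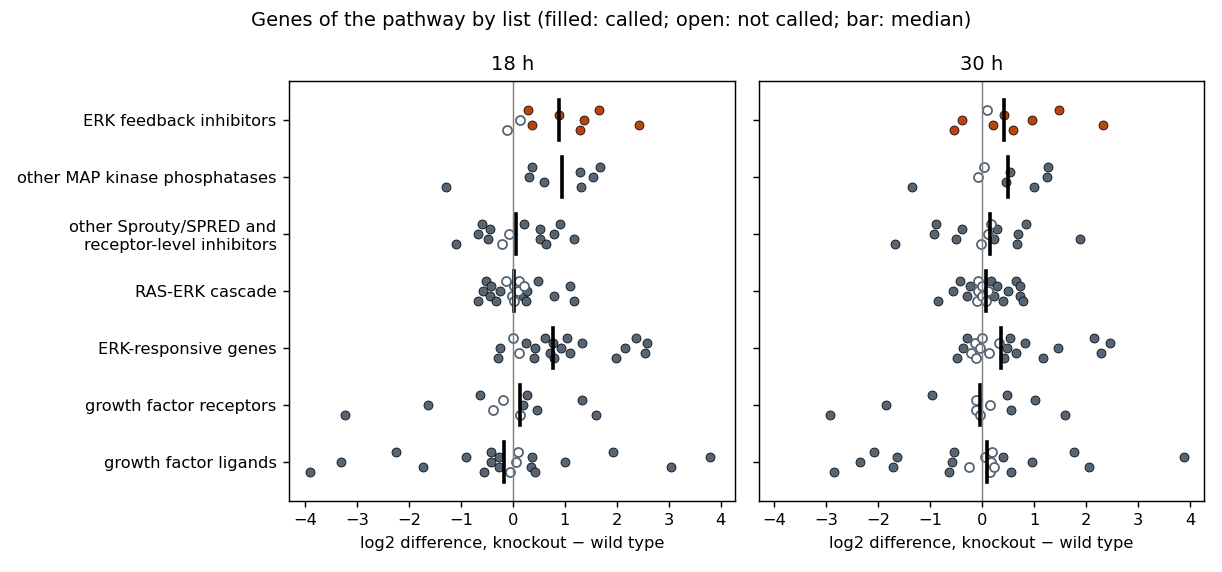
Log2 difference between knockout and wild type at 18 h and 30 h for every tested gene of each pathway list; filled points had a limma adjusted p under 0.05, and black bars are list medians. The medians of the ERK feedback inhibitors, the other MAP kinase phosphatases and the ERK-responsive genes lie at 0.78 to 0.94 at 18 h and 0.37 to 0.49 at 30 h, and those of the other 4 lists lie within 0.16 of 0.

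For each of the 9 genes the tested gene of most similar profile was found by Pearson correlation of log2 values over the 12 arrays, which share the large split between genotypes. For the phosphatases it was Serpinb2 for Dusp1 (r = 0.995), Cdc25c for Dusp4 (r = 0.996), Sinhcaf for Dusp5 (r = 0.997) and Sf3b2 for Dusp6 (r = 0.990). The 90th percentile of r over all genes was 0.893, 0.912, 0.907 and 0.869 in the same order, and 0.543 for Spry1, 0.816 for Spry2, 0.509 for Spry4, 0.403 for Spred1 and 0.680 for Spred2. It was Plat for Spry1 (r = 0.979), Pgm1 for Spry2 (r = 0.968) and Gabarapl1 for Spry4 (r = 0.969), and Phykpl for Spred1 (r = 0.928) and Zfyve9 for Spred2 (r = 0.970). These are descriptions of 12 arrays with no test.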

How the data were processed

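The authors deposited linear intensity values, 1 for each probe set and array. The submitters' processing notes name Affymetrix Expression Console 1.1 and PLIER 2.0. How arrays were normalized to each other is not stated in them. Of 35557 probe sets, 21789 had 1 gene symbol in the platform annotation, 1621 several and 12147 none listed, and 21698 of the first had their Entrez number in the RefSeq table for GRCm38.p6.

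Values were taken as log2(intensity + 16), which understates the change of dim genes, and fold changes are on that scale. The brightest probe set by mean stood for a gene, and the 13956 of 19938 genes at or above the 30th percentile (log2 7.58) were tested. A model of 4 group means used the 12 arrays together (limma 3.58.1, R 4.3.3, lmFit, eBayes with intensity trend, 8 residual and 7.98 prior degrees of freedom). Adjusted p-values are two-sided, by Benjamini-Hochberg over all genes tested in a comparison, and called under 0.05. The fit was tested on simulated data. Array number limits the precision.

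The 9 genes, the pathway lists and the markers were chosen with earlier results of these data known. Named genes were the 9, Kmt2a, for each pathway list at most 2 of the highest and 2 of the lowest called differences between genotypes without overlapping arrays (1 each for the time comparisons), and the gene most correlated with each of the 9. Values are printed for part of these genes, and the rest enter the counts. Alternatives were offsets of 1 and 64, no filter or one at the 50th percentile, scaling by cyclic loess, quantiles or medians, only the arrays compared, the mean of all probe sets, no trend, a block for the replicate number, and leaving out single arrays. List counts without knockout 18 h replicate 1 were added after seeing the data.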

Additional observations from a re-analysis of the deposited data

Results flagged for a closer look

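The change from 18 h to 30 h differed between knockout and wild type, by limma's test of the difference itself, for 3 of the 9 genes: by -1.43 on the log2 scale for Spry1, -0.75 for Spry4 and -0.70 for Dusp6 (limma adjusted p = 6.12e-05, 0.00488 and 0.0101). Of all 13956 genes tested 2838 were called for this difference, 1427 more positive in knockout and 1411 (10.1%) more negative. Such a difference is therefore common in this data set. For Spry1 and Spry4 the difference between the genotypes also changed sign between the times. Among the other pathway genes given above, the difference was more negative in knockout for Plk3 (-1.34), Egr1 (-1.33), Dusp8 (-1.14), Hbegf (-0.999), Dusp10 (-0.68), Lrig3 (-0.58), Dusp14 (-0.54), Myc (-0.48), Rras2 (-0.45) and Mras (-0.37), and more positive for Hgf (1.06), Fgf2 (0.96), Spred3 (0.70) and Fosl1 (0.43). These 14 had limma adjusted p-values between 8.26e-05 and 0.0351. Among the cell type markers named above it was -1.63 for Acta2, -1.09 for Cd68, 0.60 for Dcn and 0.53 for Cd14 (limma adjusted p = 5.22e-05, 0.0159, 0.026 and 0.0328). With 3 arrays a group, single arrays were not tested as outliers.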

How the results depend on the processing

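Over 23 alternatives, or 22 for the difference of time effects, no called difference of the 9 genes changed sign. Of the 15 called differences between genotypes, 13 passed under every alternative; Spry4 at 18 h and Spry2 at 30 h did not. Values that changed sign were all small and not called on either side. For the time change in wild type, Dusp4 went from -0.00576 to 0.0238 with quantile scaling and 0.0656 with array medians set equal, and Spred2 from 0.0121 to -0.0014 with quantile scaling and -0.0175 with cyclic loess. With single arrays left out, Dusp4 ran from -0.0995 to 0.0664 and Spred2 from -0.0169 to 0.0699 in wild type, and Dusp5 ran from -0.0168 to 0.127 and Spred1 from -0.0563 to 0.0602 in knockout. The number of genes called for time in wild type, 553, was 997 when only the arrays compared were fitted and 157 to 1032 with an array left out, and the number of the 9 called there was 0 to 1. For time in knockout 2 to 5 of the 9 were called with an array left out, and for the difference of time effects 3 to 5.

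The correlations of deviations from the group means ran from -0.456 to 0.454 over 18 pairs of arrays with the same replicate number and from -0.398 to 0.463 over 36 pairs with different numbers, so the numbers were not taken to pair the samples. With the replicate number as a block 7, 7, 0, 4 and 3 of the 9 genes were called, beside 7, 8, 0, 4 and 3 without it, for the genotypes at 18 h and 30 h, time in wild type and in knockout, and the difference of time effects. The block changed 1 call, that of Spry2 at 30 h (0.20, limma adjusted p = 0.0539). The cause of these changes was not tested. The number of arrays limits what small differences can show.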
